A study of Mus musculus with 4 samples.

Results

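Integrins and the other surface molecules with which lymphocytes adhere to vessel walls, matrix and each other were examined in effector CD4 cells of mice with experimental autoimmune encephalomyelitis (EAE). The members were taken by gene symbol from the 2 deposited tables. They were the Itga and Itgb genes, without the binding-protein genes Itgb1bp1, Itgb1bp2 and Itgb3bp and without Itgbl1. A fixed set of selectins, selectin ligands, immunoglobulin-type adhesion molecules, the hyaluronan receptor Cd44 and the CD99-family gene Cd99l2 was added. This gave 44 of 23990 symbols, namely 18 integrin alpha subunits, 9 integrin beta subunits and 17 others.

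EAE, a mouse model of MS, was induced in wild type mice (C57BL/6 in the labels, C57BL/6J in the methods) with a MOG peptide in complete Freund's adjuvant followed by pertussis toxin, and every library came from such immunized mice. CD44+CD4 cells were sorted at disease onset from spinal cords (CNS, 2 libraries) and from pooled draining lymph nodes (dLN, 2 libraries). The methods state 4 h of PMA and ionomycin after sorting, whereas the sample labels call the cells freshly sorted and name no stimulation. Age and sex of the mice are not given in the sources used here, and no source says whether the 2 libraries of a tissue came from separate mice, so p-values measure the spread between these libraries.

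An integrin is a pair of one alpha and one beta subunit, and the pair decides what it binds. On T cells LFA-1 (Itgal with Itgb2) binds ICAMs, VLA-4 (Itga4 with Itgb1) binds VCAM-1 and fibronectin, and the pair of Itga4 with Itgb7 binds MAdCAM-1 on mucosal vessels. Selectins and their ligands, such as PSGL-1 (Selplg), slow lymphocytes along the vessel wall before integrins hold them there, and antibodies to the alpha4 subunit are used to treat MS.

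Levels were read as FPKM (fragment counts corrected for transcript length and for library size) from 1 table per tissue. FPKM times transcript length summed to nearly the same total in the 4 libraries, so both tables carry a scaling by library. The steps between low FPKM values put the depth of a library between 18.6 M and 22 M fragments, and 87.9% to 91.5% of low values then lay within 0.05 fragments of a whole number, where chance gives 10%. Of 11 T-cell markers all reached 1 FPKM in both tissues, with a summed level of 4732 and 4848 FPKM in CNS against 2389 and 2258 FPKM in dLN, and Cd4 itself was at 502 and 531 against 82.0 and 66.7 FPKM. The libraries also differed in sex-linked transcripts, since Y-linked Ddx3y was at 12.7 and 11.2 FPKM in CNS and listed at 0 in dLN, while Xist, which silences one X chromosome in females, stood at 26.6 and 22.3 FPKM in the dLN libraries and did not exceed 0.0026 FPKM in the others. Sex and tissue cannot be told apart in these libraries. CNS replicate 2 stood apart from replicate 1 in markers of myeloid cells, as given beside the members it concerns. Markers of other cells were low in the 4 libraries apart from Mbp, a myelin gene that lymphoid cells also transcribe, which made up most of the 49.9 to 58.1 FPKM of 10 neural genes, and stromal, platelet and CD8 or NK lists summed to at most 13.4 FPKM.

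Most of the adhesion molecules that could be tested were higher in CNS. Of the 44 members, 31 reached a mean of 1 FPKM in CNS or dLN and were tested with limma on log2(FPKM + 1) among 10634 genes. Log2 ratios compare CNS with dLN on that scale and come out too small for low genes, whereas folds are ratios of the mean FPKM, and SE is the standard error of a log2 ratio. At a Benjamini-Hochberg adjusted p under 0.05, 23 members rose and 5 fell, and 3 did not pass. Of all tested genes 74.9% passed, 37.8% as higher and 37.2% as lower, so most genes differed between these tissues. When the log2 ratio also had to reach 1 in either direction, 23 members passed (39.2% of all tested genes), 20 of them higher (21.0%) and 3 lower (18.2%). Of the members, 14 reached 1 FPKM in CNS alone and 1 in dLN alone. For such genes the filter favoured a difference in that direction, since their means lay on either side of 1 FPKM. Itga5 and F11r, both among the 14, were still not called. Among the 16 members whose mean reached 1 FPKM in both tissues, 11 rose and 4 fell, where 35.1% and 38.9% of the 9099 genes of that kind did. The median log2 ratio was 1.25 over the 31 members and 0.0452 over all tested genes. Over the 11 T-cell markers it was 1.58, with 7 called higher, 2 lower and 2 not called, so a rise of this size was not particular to the members. By role, 9 of 12 alpha subunits, 5 of 6 beta subunits and 4 of 7 immunoglobulin-type molecules were higher. In the remaining group of selectins, sialomucins, Cd44 and Cd99l2, 5 of 6 were higher. Scaling the libraries to the same sum or the same upper quartile moved the median of all genes by -0.17 and 0.12, so calls of that size depend on the scaling. The libraries of the tissues did not overlap for 29 members, as for 89.4% of all tested genes. In bulk RNA, a smaller share of cells that express a gene and less RNA per cell cannot be told apart.

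**Figure D1:**
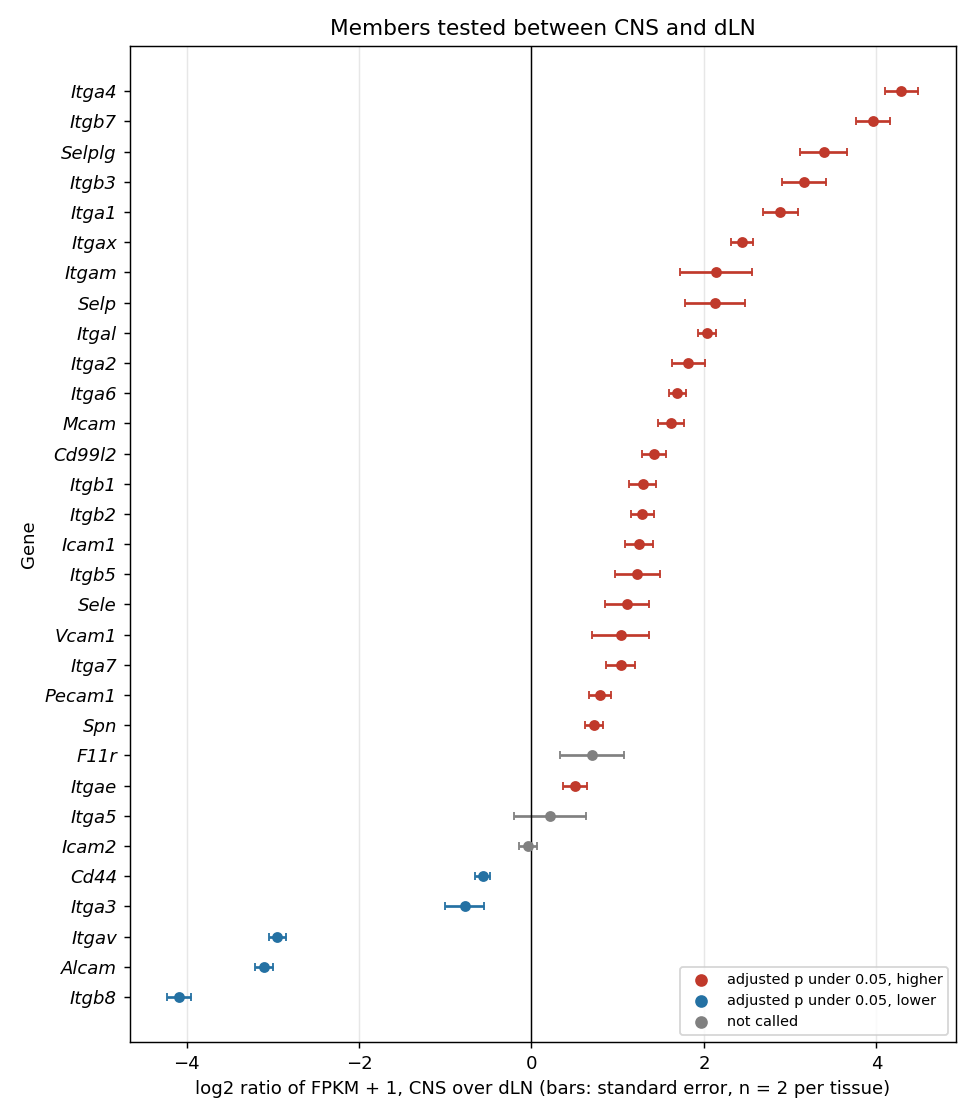
Log2 ratio of FPKM + 1 (CNS over dLN) for the 31 tested members, with standard errors and 2 libraries per tissue. Itga4 at 4.29 and Itgb8 at -4.09 mark the ends of the range, with 23 members called higher, 5 called lower and 3 not called.

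The alpha subunit of VLA-4 had the highest log2 ratio of the members with a pseudocount of 1, whereas with a pseudocount of 0.1 Itga1 was higher (5.54 against 5.29 for Itga4). Itga4 (Entrez gene 16401, chromosome 2, 79255426 to 79333114, plus strand) was read at 39.9 and 27.8 FPKM in CNS and at 0.671 and 0.840 FPKM in dLN. The tissues did not come near each other, since the mean was 33.9 ± 8.61 FPKM (SD, n = 2) in CNS but 0.755 ± 0.120 FPKM (SD, n = 2) in the lymph nodes, a 44.8-fold difference. The log2 ratio was 4.29 (SE 0.19 in limma, adjusted p = 9.86e-05), and it stayed between 4.04 and 4.55 with each library left out in turn. Exons of Itga4 share 1124 bases with Cerkl on the opposite strand in GENCODE M21, and no source used here states strand-specific counting, so fragments of that stretch may be assigned to either gene. Cerkl had a mean of 1.16 FPKM in CNS and 0.0515 FPKM in dLN.

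Both beta partners of Itga4 were higher in CNS as well. Itgb7 (Entrez gene 16421, chromosome 15, 102215995 to 102231935, minus strand) was at 360 and 391 FPKM in CNS and at 28.3 and 18.9 FPKM in dLN, with a log2 ratio of 3.96 (SE 0.20 in limma, adjusted p = 0.000123). Itgb1 (chromosome 8, 128685654 to 128733579, plus strand), the partner of many alpha subunits, was at 213 and 160 FPKM in CNS and at 73.2 and 76.5 FPKM in dLN. Its log2 ratio of 1.29 (SE 0.15 in limma, adjusted p = 0.00127) was smaller than that of Itgb7. Per length, Itgb7 was 1.69 and 2.45 times as high as Itgb1 in the CNS libraries and 0.386 and 0.247 times as high in the dLN libraries, so the order of these partners was turned between the tissues. In each library Itga4 lay far below both, at 0.188 and 0.174 times the level of Itgb1 in CNS and at 0.00916 and 0.0110 times in dLN.

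LFA-1, the integrin with which T cells hold on to ICAMs, was high in both tissues and rose in CNS in both of its subunits. Itgal (chromosome 7, 127296260 to 127335137, plus strand) was at 306 and 286 FPKM in CNS and at 76.6 and 66.2 FPKM in dLN, 4.15-fold apart, with a log2 ratio of 2.04 (SE 0.10 in limma, adjusted p = 0.000123). Itgb2 (chromosome 10, 77530348 to 77565674, plus strand) was at 238 and 267 FPKM in CNS and at 114 and 92.7 FPKM in dLN, with a log2 ratio of 1.29 (SE 0.13 in limma, adjusted p = 0.000741). Itgal therefore lay above Itgb2 in CNS, at 1.29 and 1.07 times its level, and below it in dLN, at 0.674 and 0.713 times. The FPKM of Itgal was divided among 4 RefSeq transcripts of nearly the same length, whose shares are uncertain. The leading one held 47.4% to 50.2% in CNS and 43.0% to 49.0% in dLN.

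Among the alpha subunits that pair with Itgb1 to bind collagen or laminin, Itga1, Itga2, Itga6 and Itga7 rose from low levels. Itga1, a collagen-binding subunit found on tissue-resident T cells, was at 8.22 and 5.54 FPKM in CNS, while 11 fragments in all were estimated for it in dLN. The ratio was 147 with a 95% exact interval of 81.8 to 294, which covers counting error only, and the log2 ratio was 2.89 (SE 0.20 in limma, adjusted p = 0.000257). The fold of its mean FPKM was 294 without dLN replicate 1 and 92.4 without dLN replicate 2. It shares 685 exon bases with Gm49395 on the same strand in GENCODE M21. Itga2, the other collagen-binding subunit tested, was at 4.37 and 3.37 FPKM in CNS and at 0.548 and 0.213 FPKM in dLN (log2 ratio 1.82, SE 0.19 in limma, adjusted p = 0.000886). Itga6, a laminin-binding subunit, was nearly the same in both CNS libraries, at 8.52 and 8.53 FPKM, against 1.87 and 2.03 FPKM in dLN (log2 ratio 1.69, limma adjusted p = 0.000173). Its longer transcript held 88.1% and 81.8% of its FPKM in CNS and 60.9% and 78.2% in dLN, a difference for which 2 libraries a tissue allow no p below 0.333 in an exact permutation test. Itga7, also laminin-binding, was low, at 1.04 and 1.34 FPKM in CNS with 10 fragments in dLN (log2 ratio 1.03, limma adjusted p = 0.00364).

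Itga3, another laminin-binding subunit, went the other way. It was at 3.89 and 6.39 FPKM in CNS and at 10.1 and 8.52 FPKM in dLN (log2 ratio -0.77, SE 0.22 in limma, adjusted p = 0.0274). That call was lost without CNS replicate 1 (log2 ratio -0.48, limma adjusted p = 0.0835), and also without dLN replicate 1 or dLN replicate 2 (adjusted p = 0.123 and 0.0694). Itga5, which forms the fibronectin receptor with Itgb1, did not pass the test (log2 ratio 0.22, SE 0.41 in limma, adjusted p = 0.654). It was at 0.476 and 2.43 FPKM in CNS, on either side of the 0.967 and 0.909 FPKM in dLN, and without CNS replicate 2 the log2 ratio was -0.39 with an adjusted p of 0.0178.

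The integrins of the alphav family showed opposite moves. Itgav (Entrez gene 16410, chromosome 2, 83724397 to 83806917, plus strand), whose pairs bind RGD-containing matrix proteins and latent TGF-beta, was at 7.84 and 8.63 FPKM in CNS and at 68.0 and 72.3 FPKM in dLN. It was thus 8.51-fold lower in CNS, with a log2 ratio of -2.95 (SE 0.09 in limma, adjusted p = 8.12e-05). Itgb8 (Entrez gene 320910, chromosome 12, 119162803 to 119238276, minus strand), the partner with which Itgav activates latent TGF-beta, was at 0.0812 and 0.286 FPKM in CNS and at 17.9 and 20.2 FPKM in dLN. The CNS values rest on 5 and 18 estimated fragments. The mean was 104-fold lower in CNS, or 235-fold without CNS replicate 2 and 66.8-fold without CNS replicate 1, with a log2 ratio of -4.09 (SE 0.14 in limma, adjusted p = 8.12e-05). Exons of Itgav share 634 bases with Gm13684 on the opposite strand, a symbol not among those of the tables.

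Itgb3, the partner of Itgav in the vitronectin receptor and of Itga2b on platelets, rose while Itgav fell. It was at 29.8 and 26.9 FPKM in CNS and at 3.23 and 1.54 FPKM in dLN (log2 ratio 3.16, SE 0.26 in limma, adjusted p = 0.000394). Within a library Itgb3 was 3.80 and 3.12 times as high as Itgav in CNS and 0.0475 and 0.0213 times as high in dLN. Itga2b, its platelet partner, was under 0.2 FPKM in every library, and 7 of 9 platelet markers, among them Pf4 and Ppbp, were under 3 estimated fragments in every library. Itgb5, a further partner of Itgav, was at 1.01 and 2.19 FPKM in CNS with 10 fragments in dLN (log2 ratio 1.23, limma adjusted p = 0.00997).

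**Figure D2:**
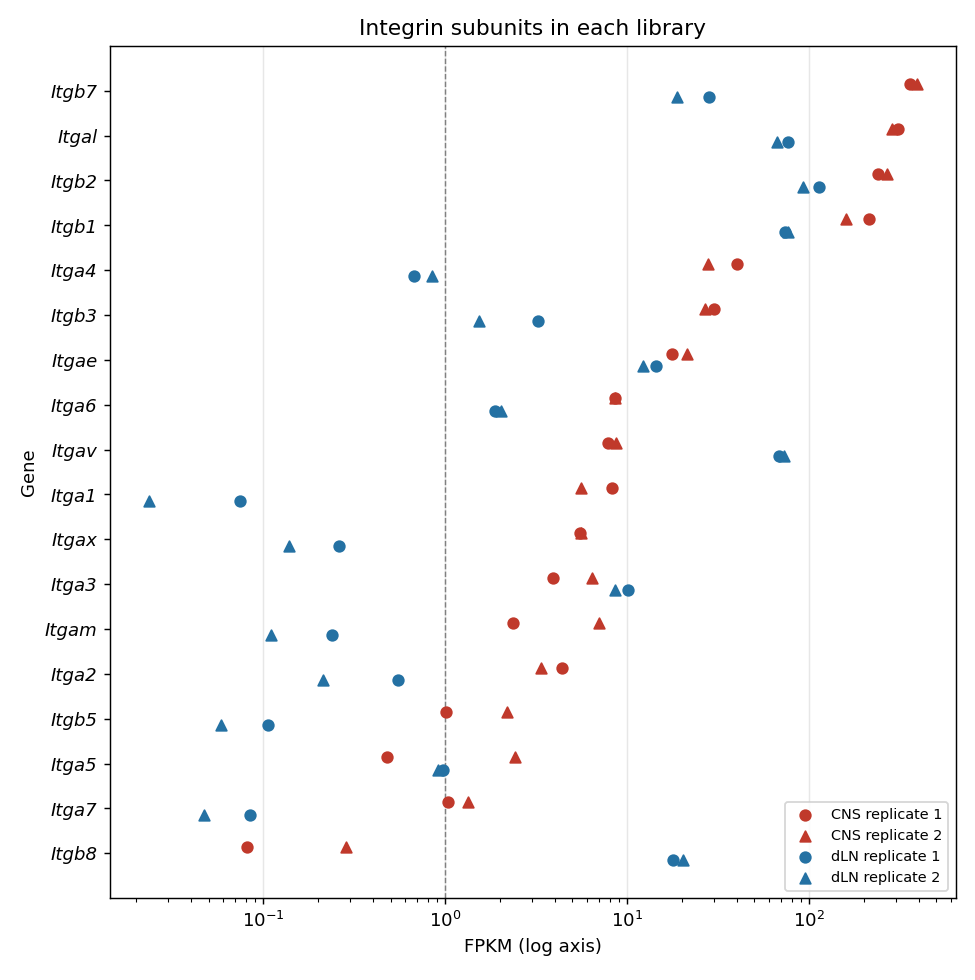
FPKM of the 18 tested integrin subunits in each library on a log axis, with circles for replicate 1, triangles for replicate 2, red for CNS and blue for dLN, and a dashed line at 1 FPKM. Red points lie to the right of blue ones for most subunits, and to the left for Itgav, Itga3 and Itgb8.

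To show the regulatory sequence of subunits that moved in opposite directions, the 250 bases before the RefSeq start (GRCm38.p6, the assembly of mm10) are given for Itga4 and Itgb7, which rose, and for Itgav and Itgb8, which fell. With a pseudocount of 1 these had the largest log2 ratios of the integrin subunits in each direction, an order that changes with the pseudocount. Of the 44 members, 30 had an entry in the RefSeq promoter table. Sequences run 5′ to 3′ on the strand of the gene, and capitals mark matches, on either strand, to TGTGGT (the core bound by RUNX factors), CCGGAA (ETS), GGTGTGA (T-box), TGANTCA (AP-1) and GGGCGG (the GC box) and to the NF-kB motif.
Itga4, chr2:79255176-79255425, plus strand: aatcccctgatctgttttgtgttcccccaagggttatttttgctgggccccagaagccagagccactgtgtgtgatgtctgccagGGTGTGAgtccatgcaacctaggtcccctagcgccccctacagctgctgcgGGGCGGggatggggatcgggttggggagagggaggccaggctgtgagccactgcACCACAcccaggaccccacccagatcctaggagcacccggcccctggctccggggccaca
Itgb7, chr15:102231936-102232185, minus strand: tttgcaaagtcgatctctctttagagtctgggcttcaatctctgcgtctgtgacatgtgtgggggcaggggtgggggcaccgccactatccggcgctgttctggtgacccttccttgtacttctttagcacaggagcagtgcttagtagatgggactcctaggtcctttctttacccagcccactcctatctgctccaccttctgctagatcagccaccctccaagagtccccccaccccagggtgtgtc
Itgav, chr2:83724147-83724396, plus strand: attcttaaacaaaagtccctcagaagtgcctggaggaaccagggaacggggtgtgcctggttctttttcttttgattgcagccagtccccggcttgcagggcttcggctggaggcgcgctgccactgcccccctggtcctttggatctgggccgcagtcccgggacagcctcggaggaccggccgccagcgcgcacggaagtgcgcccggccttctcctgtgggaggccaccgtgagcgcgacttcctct
Itgb8, chr12:119238277-119238526, minus strand: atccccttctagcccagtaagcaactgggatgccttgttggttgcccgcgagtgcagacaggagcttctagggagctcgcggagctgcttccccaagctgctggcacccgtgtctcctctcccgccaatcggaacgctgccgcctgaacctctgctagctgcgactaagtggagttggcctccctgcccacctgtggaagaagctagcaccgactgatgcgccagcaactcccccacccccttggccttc

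The Itga4 window held a T-box match 165 bases, a GC box 114 bases and a RUNX match 60 bases before the start, which do not overlap, and the other 3 windows held no match to the 6 motifs. Among all 32851 promoter windows of the table, 14.0% held the RUNX letters, 12% the ETS letters, 3.33% the T-box letters, 6.75% the AP-1 letters, 0.356% the NF-kB letters and 32.7% the GC box. Of the 30 members with an entry, 2 held the RUNX letters, 2 the ETS letters, 2 the T-box letters, 4 the AP-1 letters, 0 the NF-kB letters and 13 the GC box. These counts describe letters in short windows and are no measure of binding.

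Among the leukocyte integrins, Itgax and Itgam rose from near absence in dLN. Itgax (CD11c), known from dendritic cells and from activated T cells, was at 5.50 and 5.55 FPKM in CNS and at 0.260 and 0.138 FPKM in dLN (log2 ratio 2.45, SE 0.13 in limma, adjusted p = 0.000132). The 9 dendritic-cell markers summed to 35.3 and 515 FPKM in CNS and to 62.6 and 57.3 FPKM in dLN, mostly from the class II genes Cd74, H2-Ab1 and H2-Aa, and of 7 tested 1 rose and 1 fell. Their part in the level of Itgax was not tested. Itgam (CD11b), a subunit of myeloid cells, was at 2.37 and 6.95 FPKM in CNS and at 0.240 and 0.111 FPKM in dLN (log2 ratio 2.14, SE 0.42 in limma, adjusted p = 0.00755). Itgam shares 3450 exon bases with Gm49368 on the same strand. It was 2.94 times as high in CNS replicate 2 as in replicate 1, and the log2 ratio without replicate 2 was 1.52 (adjusted p = 0.0056). Itgae (CD103), which pairs with Itgb7 to bind E-cadherin, moved little, from 14.4 and 12.3 FPKM in dLN to 17.6 and 21.3 FPKM in CNS. Its log2 ratio of 0.51 (limma adjusted p = 0.0219) did not pass once each library was scaled to the same sum (0.32, adjusted p = 0.0656), nor without CNS replicate 2 (0.38, adjusted p = 0.116) or dLN replicate 2 (0.40, adjusted p = 0.113). Itgb7 was 20.4 and 18.4 times as high as Itgae in CNS and 1.96 and 1.54 times as high in dLN.

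Within each library the make-up of the integrin pool did not rest on scaling between libraries. The alpha subunits summed to 406 and 385 FPKM in CNS and 174 and 164 FPKM in dLN, and the beta subunits to 841 and 848 FPKM in CNS and 236 and 210 FPKM in dLN. Itgal took 75.3% and 74.4% of the alpha FPKM in CNS and 44.0% and 40.4% in dLN. Itgav took 1.93% and 2.24% in CNS and 39.0% and 44.1% in dLN, where it was about level with Itgal. Itga4 made up 9.83% and 7.22% of the alpha FPKM in CNS and 0.385% and 0.512% in dLN. Among the beta subunits Itgb7 led in CNS, with 42.8% and 46.2%, while Itgb2 led in dLN, with 48.1% and 44.2%. Itgb8 accounted for 7.59% and 9.64% of the beta FPKM in dLN and for 0.00966% and 0.0337% in CNS. The 2 libraries of a tissue lay on the same side of those of the other for each of these shares, but 2 against 2 libraries cannot give an exact permutation p below 0.333.

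**Figure D3:**
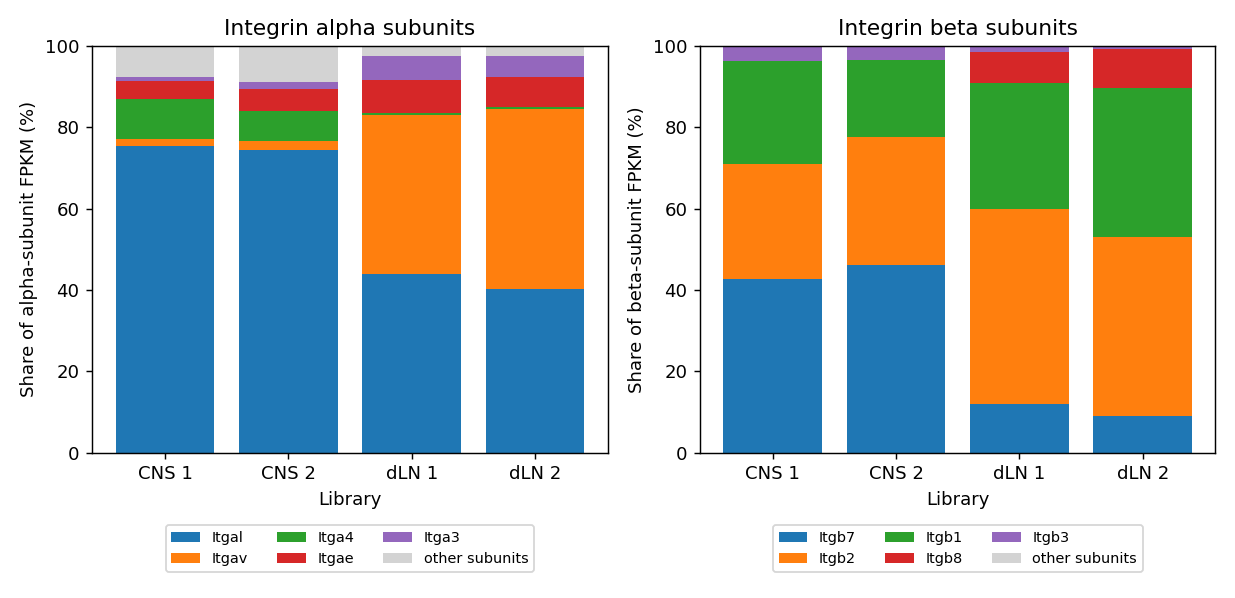
Share of the summed FPKM of integrin alpha subunits (left) and beta subunits (right) taken by the leading subunits in each of the 4 libraries, in percent. Itgal takes 74.4% to 75.3% of the alpha FPKM in CNS and 40.4% to 44.0% in dLN, where Itgav takes 39.0% to 44.1%.

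The transcript of PSGL-1, a selectin ligand of T cells, rose in CNS, as did most tested integrin subunits. Selplg (PSGL-1, Entrez gene 20345, chromosome 5, 113817798 to 113830501, minus strand) was at 350 and 394 FPKM in CNS and at 45.8 and 26.0 FPKM in dLN. The tissues were 10.4-fold apart, with a log2 ratio of 3.39 (SE 0.27 in limma, adjusted p = 0.000379). Spn (CD43), a sialomucin that also carries selectin ligands, was high in both tissues, at 211 and 217 FPKM in CNS and 140 and 119 FPKM in dLN (log2 ratio 0.73, SE 0.11 in limma, adjusted p = 0.00257). Cd44, the hyaluronan receptor by which the cells were gated, was lower in CNS, at 112 and 112 FPKM against 176 and 157 FPKM in dLN (log2 ratio -0.56, SE 0.09 in limma, adjusted p = 0.00337). In every library one transcript of Cd44 (the shortest of the 6 listed) held 96.2% to 98.0% of its FPKM. Cd99l2, an X-linked gene of the CD99 family that acts in leukocyte passage through vessel walls, was at 3.69 and 4.51 FPKM in CNS and at 0.955 and 0.838 FPKM in dLN (log2 ratio 1.42, limma adjusted p = 0.000688).

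The immunoglobulin-type molecules, several of which are themselves integrin ligands, moved both ways. Icam1, a ligand of LFA-1, was at 38.2 and 50.8 FPKM in CNS and at 19.1 and 16.8 FPKM in dLN (log2 ratio 1.25, SE 0.16 in limma, adjusted p = 0.00173). Icam2, the other LFA-1 ligand of lymphocytes among the tested members, did not pass the test, at 14.4 and 12.6 FPKM in CNS and 14.1 and 13.6 FPKM in dLN, with overlapping libraries (log2 ratio -0.0365, SE 0.10 in limma, adjusted p = 0.758). Pecam1, which binds itself at cell contacts, rose from 12 and 9.66 to 18.7 and 20.1 FPKM (log2 ratio 0.79, limma adjusted p = 0.00376). Alcam, the ligand of the T-cell receptor CD6, fell 10.4-fold. It was at 3.63 and 4.29 FPKM in CNS and at 41.4 and 41.3 FPKM in dLN (log2 ratio -3.10, SE 0.10 in limma, adjusted p = 8.12e-05). Mcam (CD146), an adhesion molecule of endothelium that is also carried by some Th17 cells, was at 2.22 and 2.44 FPKM in CNS with 10 fragments in dLN (log2 ratio 1.62, limma adjusted p = 0.000612). F11r (JAM-A) was at 0.341 and 1.69 FPKM in CNS and at 0.0740 and 0.266 FPKM in dLN, and did not pass (log2 ratio 0.70, SE 0.37 in limma, adjusted p = 0.14). It passed without CNS replicate 1 (1.20, adjusted p = 0.0124), and without CNS replicate 2 the log2 ratio was 0.20.

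**Figure D4:**
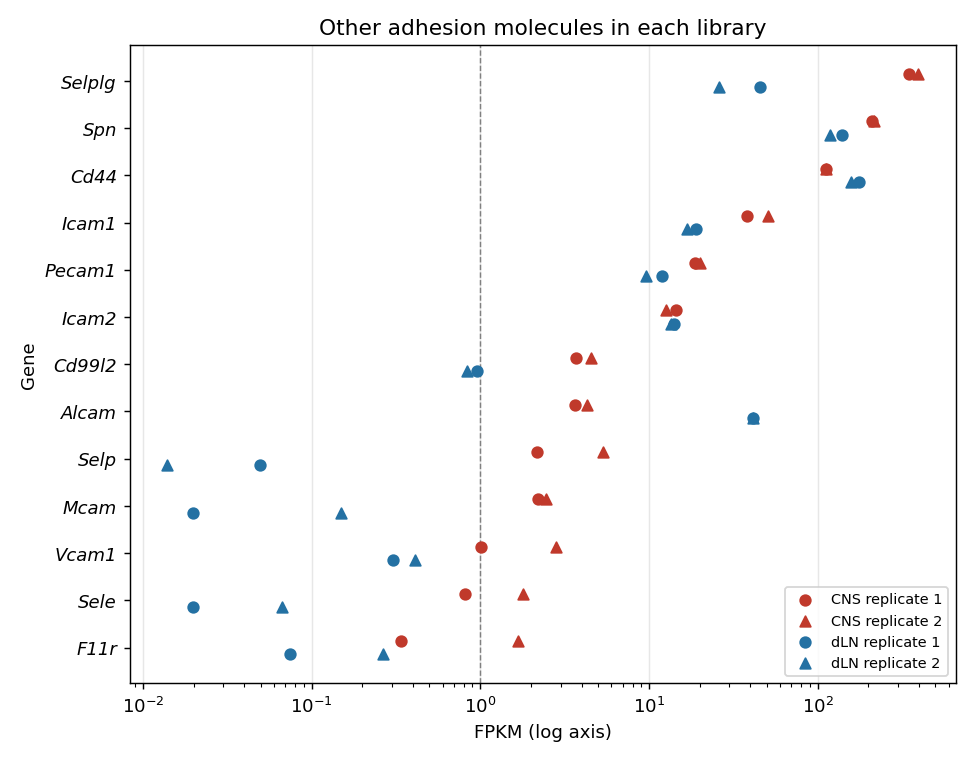
FPKM of the 13 tested adhesion molecules other than integrins in each library on a log axis, with circles for replicate 1, triangles for replicate 2, red for CNS and blue for dLN, and a dashed line at 1 FPKM. Selplg and Spn lead in CNS at 211 to 394 FPKM, while Alcam and Cd44 lie lower in CNS than in dLN.

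Vessel-wall selectins and VCAM-1 were read at low levels in the CNS libraries. Selp (P-selectin) was at 2.18 and 5.35 FPKM in CNS, with 4 fragments in all in dLN (log2 ratio 2.12, limma adjusted p = 0.00392). Sele (E-selectin) was at 0.814 and 1.80 FPKM in CNS with 5 fragments in dLN (log2 ratio 1.11, limma adjusted p = 0.0125), and without dLN replicate 1 it did not pass (adjusted p = 0.0547). Vcam1, the endothelial ligand of VLA-4, was at 1.02 and 2.82 FPKM in CNS and at 0.302 and 0.409 FPKM in dLN (log2 ratio 1.03, limma adjusted p = 0.0376). Without CNS replicate 2 the log2 ratio of Vcam1 was 0.57 (adjusted p = 0.0147), and without dLN replicate 1 or dLN replicate 2 its call was lost (adjusted p = 0.129 and 0.106). All 3 were at least 2.21 times as high in CNS replicate 2 as in replicate 1. Endothelial markers had the same order, with a summed level of 9.5 and 24.8 FPKM in CNS and 3.17 and 2.45 FPKM in dLN over 11 genes, of which 11 were higher in CNS replicate 2. Of the 11, 6 were tested and 5 of them rose, where 37.8% of all tested genes did. These 5 reached a mean of 1 FPKM in CNS alone, so the filter favoured that direction and their count is no result about it. Egfl7, the only endothelial marker at 1 FPKM in both tissues, was not called, with means of 1.52 FPKM in CNS and 2.63 FPKM in dLN. Cldn5, Vwf and Emcn were listed at 0 in both dLN libraries. The part of the endothelial markers in the levels of Selp, Sele and Vcam1 was not tested.

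Of the tested members, 9 were more than 1.5 times as high in CNS replicate 2 as in replicate 1 and 0 the other way round. They were Itga5, F11r, Itgb8, Itgam, Vcam1, Selp, Sele, Itgb5 and Itga3. In dLN, 9 tested members were more than 1.5 times as high in replicate 1 and 3 in replicate 2. The 3 were F11r, Mcam and Sele, with 3 and 14, 1 and 9, and 1 and 4 estimated fragments. Several of the 9 also rested on few fragments, such as Itga1 with 8 and 3, so these counts are uncertain. Selplg (2050 and 1388 fragments) and Itgb3 (335 and 190) were among those higher in dLN replicate 1. Over the same libraries the 14 microglia and macrophage markers summed to 58.8 and 198 FPKM in CNS and to 8.58 and 6.26 FPKM in dLN. Of 10 tested genes 7 were higher in CNS, where 37.8% of all tested genes were. Only 2 of the 14 reached a mean of 1 FPKM in dLN, so the filter favoured that direction. In dLN 9 of the 14 were under 3 fragments in both libraries, C1qa, Csf1r and Aif1 among them. The 8 neutrophil markers summed to 1.5 and 220 FPKM in CNS, and 0 of 6 tested ones passed. The highest of each were Lyz2, at 3.22 and 92.1 FPKM in CNS, and S100a8, read as 0 in replicate 1 but as 101 FPKM in replicate 2. The summed T-cell markers were 1.02 times as high in CNS replicate 2. Itga6 (1.0), Itgax (1.01), Spn (1.03), Itgb7 (1.09) and Selplg (1.13) lay close to that ratio, while Itga1 (0.674), Itga4 (0.695) and Itgb1 (0.751) were lower in replicate 2. The part of the myeloid markers in the levels of the 9 members named for CNS replicate 2 was not tested. Without CNS replicate 2, 22 members rose and 6 fell.

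**Figure D5:**
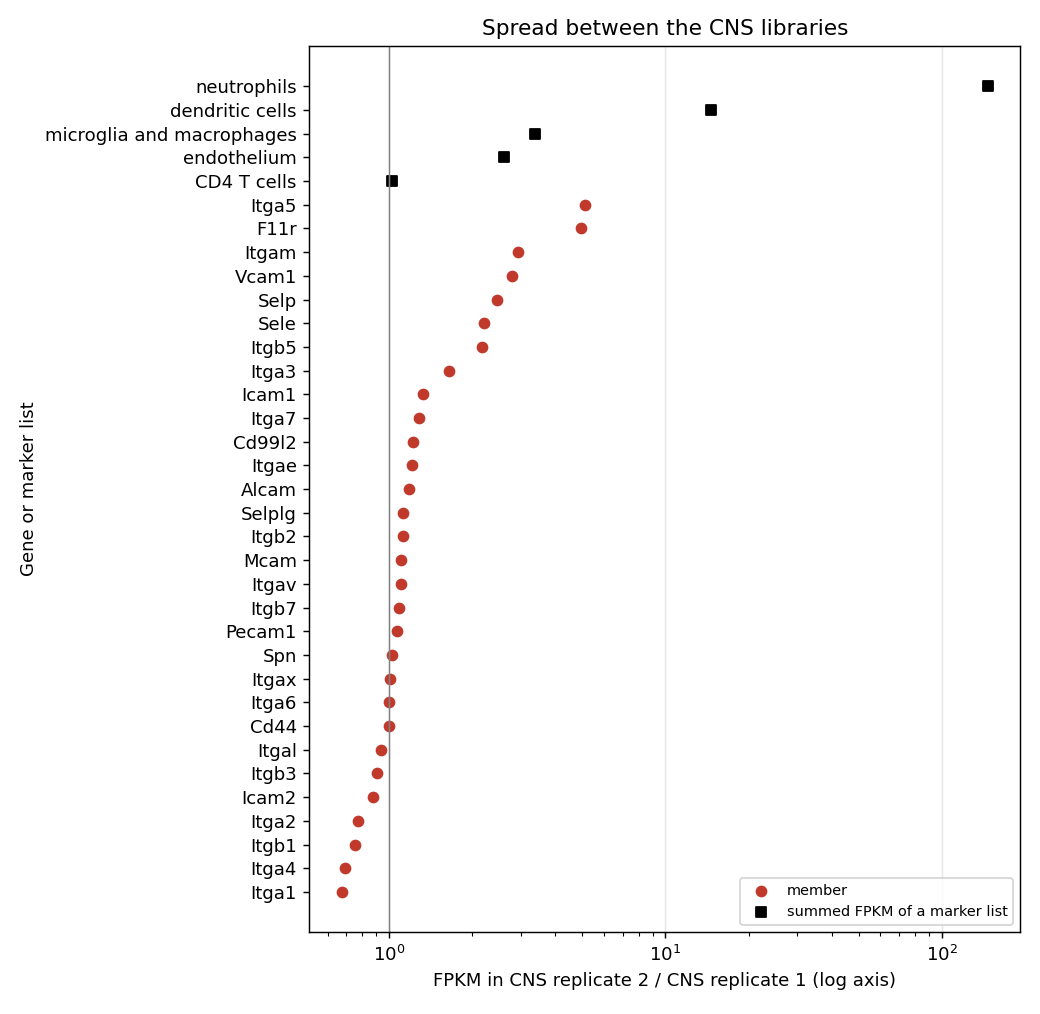
Ratio of FPKM in CNS replicate 2 to CNS replicate 1 on a log axis, for the 30 members whose CNS mean reached 1 FPKM (red) and for the summed FPKM of 5 marker lists (black squares). The T-cell list lies at 1.02 and the endothelial list at 2.61, next to Selp at 2.45 and Vcam1 at 2.77. Itgam lies at 2.94 and the microglia and macrophage list at 3.37.

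The 13 members that were not tested were low in both tissues. Itga8, Itga11, Itgb2l and Itgb6 were under 3 estimated fragments in every library and count as absent. Itgad had 56 fragments in CNS and 1 in dLN, and Itgb4, the laminin-binding beta subunit of epithelia, had 4 and 14 fragments in CNS and 0 in dLN. Icam4 (at most 0.517 FPKM), Jam2 (0.389) and Jam3 (0.467) were highest in CNS replicate 2, and Icam5 (0.945), Itga10 (0.144), Itga2b (0.181) and Itga9 (0.127) had their highest value in a dLN library.

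Genes that regulate integrin activity were taken as a list of 34 activators, inhibitors and membrane partners. Of these, 29 were tested, and 20 rose, 4 fell and 5 did not pass, where 37.8% of all tested genes rose and 37.2% fell. The median log2 ratio was 0.98 over the list and 0.0452 over all tested genes. Among the 20 were also genes known to hold integrins or Rap1 inactive, namely Rap1gap2, Sipa1 (2.47), Itgb1bp1 (1.16) and Sharpin (0.80). Tln1 (talin) and Fermt3 (kindlin-3), which bind beta-subunit tails, had log2 ratios of 1.62 and 1.33. Tln1 was at 118 and 123 FPKM in CNS against 42.9 and 34.3 FPKM in dLN, and Fermt3 at 98.7 and 118 against 46.3 and 38.5 FPKM. The 4 called genes of the list with the largest log2 ratios were Rasgrp2 (3.97), an exchange factor that activates Rap1, the adaptors Skap1 (3.17) and Fyb (3.01), and Rap1gap2 (2.84), which turns Rap1 off. Rasgrp2 was at 26.4 and 26.7 FPKM in CNS and at 1.08 and 0.496 FPKM in dLN. The 4 that fell were the tetraspanins Cd9 (-2.16) and Cd81 (-1.50), the focal adhesion kinase Ptk2 (-1.0) and Lims1 (-0.35), and Rap1a did not pass (log2 ratio -0.17, limma adjusted p = 0.166) while Rap1b rose (0.98). Rap1a, Rap1b, Sipa1, Itgb1bp1, Sharpin and the genes that fell were singled out after their values were seen.

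Genes that build selectin ligands moved in both directions. Of 19 listed genes 17 were tested, and 9 rose, 5 fell and 3 did not pass, against 37.8% higher and 37.2% lower among all tested genes, with a median log2 ratio of 0.68. The largest changes were lower Chst2 (-2.72), a sulfotransferase, and Tpst1 (-2.65), which sulfates tyrosines, and higher St3gal6 (2.51) and St3gal3 (2.17), which add sialic acid. Tpst2, the other tyrosine sulfotransferase, rose (log2 ratio 1.18). Gcnt1, the enzyme that branches the O-glycans of PSGL-1, fell from 21.5 and 21.8 FPKM in dLN to 4.62 and 5.69 FPKM in CNS (log2 ratio -1.89), and Fut7, which adds the fucose that selectins need, did not pass (log2 ratio 0.22, limma adjusted p = 0.457). Gcnt1, Fut7 and Tpst2 were singled out after their values were seen.

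Integrin ligands made mainly by other cells were low. Of 14, 6 were tested, and 4 rose, 1 fell and 1 did not pass, where 37.8% of all tested genes rose and 37.2% fell. Of the 6, 5 reached a mean of 1 FPKM in CNS alone and 1 in dLN alone. The filter thus favoured these directions, and the counts are no result about them. Cdh1 (E-cadherin, the ligand of the pair of Itgae and Itgb7) was at 9.55 and 9.46 FPKM in CNS and listed at 0 in both dLN libraries. Fn1 (fibronectin, log2 ratio 1.96) and Spp1 (osteopontin, 1.92) were higher in CNS, at 2.06 and 11.5 FPKM and at 2.64 and 6.89 FPKM. The log2 ratio of Fn1 was 0.94 without CNS replicate 2. Npnt (nephronectin) was lower, at 0.251 and 0.448 against 6.82 and 4.44 FPKM in dLN (log2 ratio -2.28). Of these 14 genes, 12 were higher in CNS replicate 2 than in replicate 1.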

How the data were processed

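CD44+CD4 cells were sorted from CNS and dLN, and RNA libraries were made with TruSeq RNA V2 kits and sequenced on an Illumina HiSeq2500. Reads were trimmed and aligned by the authors, who deposited FPKM for 33819 RefSeq transcripts of mm10, with 1 table for each tissue. The aligner and the program that computed FPKM are not given in the sources used here. Both CNS library names stand in the same header cell, and the value columns were taken in the order of the names.

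FPKM was summed by symbol, without 565 transcripts that carry none (0.142% to 0.446% of the FPKM). Genes that reached a mean of 1 FPKM in CNS or dLN entered limma 3.58.1 in R 4.3.3 (eBayes with trend, tissue as the only term, pseudocount 1, Benjamini-Hochberg over 10634 genes, called under 0.05). Fragments were estimated from FPKM, transcript length and depth, and fewer than 3 counted as absent. Intervals are exact (Clopper-Pearson, 95%) and cover counting error only. The fit was tested on simulated data in which 200 of 10634 genes were changed, far fewer than the 74.9% called in the data. It recovered 57 of 100 genes with a log2 change of 1 and 90 of 100 with a change of 2, with 8 false calls. A gene not called may therefore still differ. Coordinates are counted from 1. Strand and overlaps came from GENCODE M21, promoter sequences from RefSeq. Python 3.11.15 was used for the rest.

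Members reaching a mean of 1 FPKM are named with each library's value, the others once, and of each pathway list the 4 called genes with the largest log2 ratios. For Itga1, Itga7, Itgb5, Mcam, Selp and Sele the dLN level is given as a fragment total over both libraries instead. Members and lists were chosen with earlier results of these data known. Marker genes Adgre1 and Ly6g were not analysed here. As alternatives, the pseudocount, the scaling, the filter and the variance trend were changed, the leading transcript stood for its gene, a replicate block was added, and each library was left out.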

Additional observations from a re-analysis of the deposited data

How the results depend on the processing

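Of 399 comparisons of the 31 tested members under 13 alternatives, 382 changed neither sign nor call, and for 24 members this held throughout. Of the others, 12 lost and 2 gained the threshold and 3 reversed. Those that lost it at least once were Itga3, Itgae, Vcam1 and Sele, and F11r and Itga5 passed without CNS replicate 1. The reversals were Icam2, at 0.0899 with the same upper quartile and from -0.13 to 0.054 with each library left out, and Itga5, from -0.39 to 0.82 with each library left out. The cause was not tested. The median log2 ratio of the members was 2.05 with a pseudocount of 0.1 and 0.73 without a filter, which adds members of low level. The count of tested genes called ran from 6596 to 8477, that of members higher from 20 to 25 and that of members lower from 4 to 6. Replicate numbers were not taken to pair the libraries, since the differences between replicates of one tissue correlated with those of the other at 0.0933 across genes. With the replicate block 7828 genes were called, and 23 members were higher and 5 lower. With 1 library left in a tissue, it is assumed to vary like the other tissue. Depth limits the members under about 20 fragments in dLN, whose folds have wide intervals.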
